A study of Mus musculus with 2 samples.

Results

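The 37 genes of the mouse mitochondrial genome were examined in total RNA of MEL cells, a line of mouse erythroleukemia cells that make hemoglobin when induced. They were the rows of each gene table whose Ensembl identifier belongs to a symbol beginning with mt-: 13 mRNAs, 2 rRNAs and 22 tRNAs, of 43346 Ensembl gene rows and 69691 rows in all. Both libraries belonged to 1 group, cells given 2% dimethyl sulfoxide (DMSO) for 5 days, and are called replicate 1 and replicate 2. No untreated library was analysed here, so no value below is a response to DMSO. By the labels they are numbered biological replicates that share 1 biosample record, which does not say whether the cells came from separate cultures, so the spread between them may be technical.

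The mitochondrial genome is a small circle that is transcribed on both strands into long precursors. Most of its tRNAs lie between the longer genes, and their excision by nuclear-encoded enzymes frees the rRNAs and mRNAs on either side. The rRNAs build the mitochondrial ribosome, and each mRNA codes for a subunit of the respiratory chain or of the ATP synthase, which work together with many subunits made from nuclear genes. Erythroid precursors depend on mitochondria for heme synthesis and discard them as they mature.

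Replicate 1 held 65109488 estimated counts and replicate 2 held 90856320. The 9 erythroid markers all reached 1 TPM (a transcript level scaled to length and to the sum over all transcripts) in both libraries, and their summed level was 6550 TPM in replicate 1 and 13700 TPM in replicate 2. Hba-a1, an alpha-globin gene, had 2038 and 3934 TPM, and Slc4a1, the band 3 anion exchanger of red cells, had 1.33 and 5.99 TPM. Of the 9, 7 had the higher TPM in replicate 2, and most of the sum was globin. Among the regulators, Gata1 had 57.4 and 64.3 TPM, Klf1 32.9 and 30.7, and the erythropoietin receptor gene Epor 31.2 and 30.4. In TPM the libraries thus differed in globin and some other erythroid transcripts but little in these. Their counts were 23820 and 43839 for Gata1, 10953 and 16906 for Klf1, and 12618 and 20336 for Epor. Scaled to the total counts of each library, Gata1, Klf1 and Epor were therefore also higher in replicate 2. The part of these marker differences in any difference below was not tested. Of 8 markers of other blood and stromal cells, 0 reached 1 TPM in both libraries, and their sum was 0.75 and 0.49 TPM.

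The first sequences to have in view are those of members that have near-identical nuclear copies, because a read cannot be placed on one or the other where the letters are equal. The start of mt-Nd3 is shown with its copy Gm28438 on chromosome 1. Capitals mark their 1 difference over 345 aligned bases, T3C, counted from 1 at the 5′ end of the member, with the member's base first. All coordinates are of the mm10 build, and all sequences are transcript sequences from GENCODE M21, written 5′ to 3′.
mt-Nd3, chrM:9459-9491, plus strand: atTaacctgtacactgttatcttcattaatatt
Gm28438, chr1:24613087-24613119, minus strand: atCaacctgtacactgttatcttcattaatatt

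For mt-Co1, the copy Gm29216 covers only the 3′ part of the gene, and a second copy, Gm13340 on chromosome 2, is full-length but less alike. The stretch where Gm29216 begins is shown with both. In mt-Co1 and Gm29216 the capital marks A1066T, the last difference between them, after which 479 bases to the end of mt-Co1 were identical. In Gm13340 capitals mark the bases that differ from mt-Co1 within the stretch, of 37 mismatches over 1545 bases.
mt-Co1, chrM:6363-6423, plus strand: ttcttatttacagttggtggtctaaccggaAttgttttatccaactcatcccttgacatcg
Gm29216, chr1:24616155-24616197, minus strand: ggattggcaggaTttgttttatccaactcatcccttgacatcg
Gm13340, chr2:22588552-22588612, minus strand: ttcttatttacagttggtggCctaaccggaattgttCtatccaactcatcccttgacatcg

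Neighbouring mitochondrial genes can also share bases. The end of mt-Atp8 and the start of mt-Atp6 are shown because they are read in different frames from 1 shared stretch of 43 bases, in capitals. The end of mt-Nd4l and the start of mt-Nd4 share 7 bases in the same way.
mt-Atp8, chrM:7907-7969, plus strand: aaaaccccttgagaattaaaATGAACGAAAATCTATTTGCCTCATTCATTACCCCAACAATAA
mt-Atp6, chrM:7927-7989, plus strand: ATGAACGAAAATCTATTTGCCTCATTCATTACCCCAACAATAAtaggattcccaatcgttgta
mt-Nd4l, chrM:10147-10173, plus strand: caaaatctcaacctactacaATGCTAA
mt-Nd4, chrM:10167-10193, plus strand: ATGCTAAaaattattcttccctcacta

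The last bases of 4 mRNAs are shown because several mitochondrial genes end inside a stop codon. In mt-Co2 the capitals mark a full stop codon. In mt-Co3, mt-Nd4 and mt-Cytb the gene has 1 base beyond its last whole codon, a T, shown as a capital; in mammals the poly(A) tail is known to complete such a stop codon.
mt-Co2, chrM:7677-7696, plus strand: gatctgcttcaataattTAA
mt-Co3, chrM:9371-9390, plus strand: catttattgatgaggatctT
mt-Nd4, chrM:11525-11544, plus strand: aattacaggcctgacaataT
mt-Cytb, chrM:15269-15288, plus strand: aatactaaaattatatccaT

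The shortest and the longest tRNA of the set are shown because their length decides below whether they could be counted. mt-Ts2 is a serine tRNA of 59 bases and mt-Tl1 a leucine tRNA of 75 bases.
mt-Ts2, chrM:11613-11671, plus strand: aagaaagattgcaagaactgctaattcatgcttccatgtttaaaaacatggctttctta
mt-Tl1, chrM:2676-2750, plus strand: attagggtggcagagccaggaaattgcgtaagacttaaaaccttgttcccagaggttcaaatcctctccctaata

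The 37 genes were annotated on bases 1 to 15422 of chromosome M, nearly without gaps. Of the 36 pairs of neighbours, 21 touched or overlapped, 14 had 1 to 5 bases between them, and 1 pair, mt-Tn and mt-Tc, had 32. mt-Nd5 and mt-Nd6 overlapped by 14 bases on opposite strands. The plus strand carried 28 of the genes and the minus strand 9, namely mt-Nd6 and 8 tRNAs. A tRNA was the next gene on both sides of 6 of the 13 mRNAs.

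The 13 mRNAs held 0.694% of all estimated counts in replicate 1 and 0.709% in replicate 2 (0.701% ± 0.0108, SD, n = 2). The 2 rRNAs held 0.394% and 0.215% (0.305% ± 0.127, SD, n = 2). The mRNA share thus differed little between the libraries, while the rRNA share was higher in replicate 1. The ratio of rRNA counts to mRNA counts was 0.569 in replicate 1 and 0.303 in replicate 2. All members together held 1.09% and 0.924%. In bulk RNA, fewer mitochondria per cell and less RNA per mitochondrion cannot be told apart, nor can fewer cells of a type and less RNA per cell.

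Both rRNAs were measured, and the one of the large ribosomal subunit was much the higher. mt-Rnr2, the 16S rRNA of the large subunit (chrM:1094-2675), had 237684 counts in replicate 1 and 187432 in replicate 2, or 690 and 329 TPM. mt-Rnr1, the 12S rRNA of the small subunit (chrM:70-1024), had 19086 and 7696 counts, or 98.8 and 24.2 TPM. The 2 genes did not overlap in level in either unit.

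The ratio of mt-Rnr2 to mt-Rnr1 in TPM was 6.99 in replicate 1 and 13.6 in replicate 2 (10.3 ± 4.68, SD, n = 2). A ribosome holds 1 of each rRNA, and in both libraries the counted ratio was well above that, and higher in replicate 2. The labels do not say whether rRNA was removed before sequencing, and the part of any such step in these levels was not tested.

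Among the mRNAs, the 3 core subunits of cytochrome c oxidase (complex IV), which passes electrons to oxygen, led the counts. They held 73.7% of mitochondrial mRNA counts in replicate 1 and 77.9% in replicate 2. Complex I, NADH dehydrogenase, has 7 members and held 12.2% and 8.01%. The 2 members of ATP synthase (complex V) held 9.27% and 10.3%, and mt-Cytb, the only member of complex III, held 4.81% and 3.86%. Complexes I and III thus had the larger share in replicate 1, and complexes IV and V in replicate 2.

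**Figure D1:**
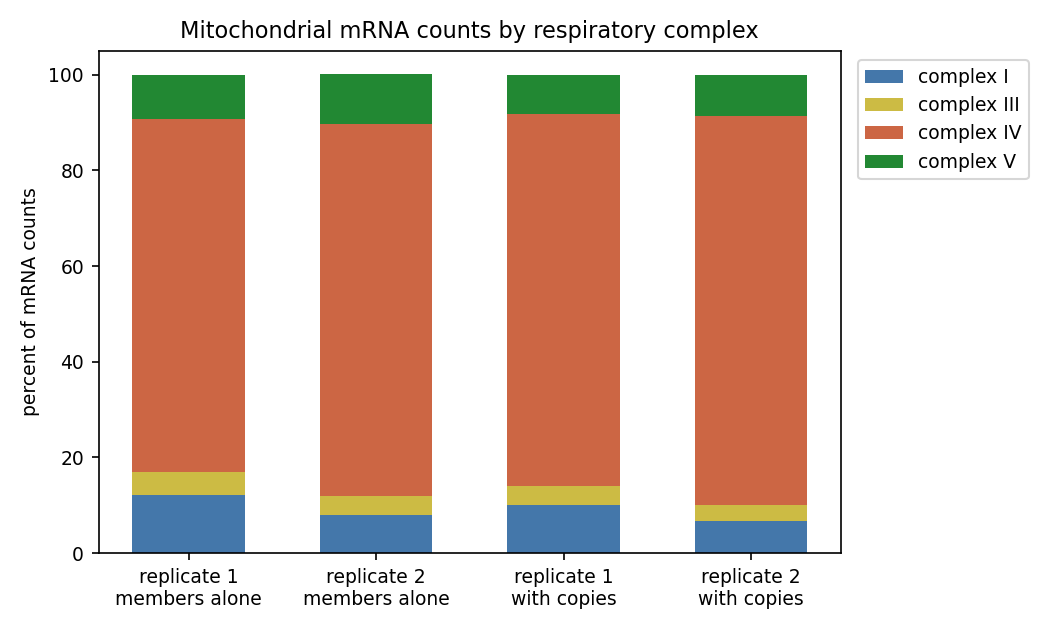
Percent of mitochondrial mRNA counts by respiratory complex, as stacked bars for each library, with the member rows alone (left pair) and with the counts of near-identical nuclear copies added (right pair). Complex IV takes 73.7% and 77.9% alone and 77.8% and 81.3% with copies, and complex I is larger in replicate 1 in both pairs.

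mt-Co1 (ENSMUSG00000064351.1, chrM:5328-6872) encodes the catalytic subunit of complex IV and had the highest level of the 13 mRNAs. It had 225802 counts in replicate 1 and 318832 in replicate 2, or 673 and 575 TPM (624 ± 69.4, SD, n = 2). Its CPM per kb, the count scaled to the total of the library and to annotated length, was 2245 and 2271. TPM was therefore higher in replicate 1, while the count scaled only to depth and length differed by little. FPKM, which is scaled to length and to mapped fragments, was 2495 and 2537.

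The other 2 subunits of complex IV followed. mt-Co2 (chrM:7013-7696) encodes the subunit that takes electrons from cytochrome c and had 465 and 440 TPM (452 ± 17.6, SD, n = 2), or 1334 and 1484 CPM per kb. mt-Co3 (ENSMUSG00000064358.1, chrM:8607-9390) had 313 and 362 TPM (338 ± 34.5, SD, n = 2), or 933 and 1269 CPM per kb. The ranges of the 3 genes over the libraries did not overlap on either scale, but the place of mt-Co3 depended on its nuclear copy, as described below.

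The members of ATP synthase sit in the proton channel of the enzyme or beside it. mt-Atp6 (chrM:7927-8607) had 278 and 276 TPM (277 ± 1.33, SD, n = 2), or 798 and 931 CPM per kb. mt-Atp8 (chrM:7766-7969) had 540 and 488 TPM (514 ± 36.8, SD, n = 2), which placed it second among the mRNAs, but 490 and 457 CPM per kb, which placed it at the fifth. The TPM rests on an effective length, the number of positions at which a fragment can start, of 50.1 and 43.4 of its 204 bases.

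The ratio of mt-Atp8 to mt-Atp6 shows how much that scale matters for a gene this short. In TPM it was 1.94 in replicate 1 and 1.76 in replicate 2. Per kb of annotated length it was 0.615 and 0.491. The order of the 2 overlapping genes was therefore opposite on the 2 scales in both libraries. Although the genes share 43 bases, the mt-Atp8 count was a whole number in each library, 6514 and 8473. The authors' posterior SD of that count was 0.0% of it in both libraries, so no sharing of reads with mt-Atp6 showed in it.

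mt-Cytb (chrM:14145-15288), the cytochrome b of complex III, had 90.9 and 63.1 TPM (77.0 ± 19.6, SD, n = 2). In order of mean TPM it stood seventh, and its range over the libraries overlapped that of the next gene, mt-Nd1.

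The 7 members of complex I form the membrane arm that pumps protons, and they lay at the low end of the mRNAs except mt-Nd3. mt-Nd3 (chrM:9459-9806) had 159 and 122 TPM, and mt-Nd1 (chrM:2751-3707) had 87.6 and 52.5. mt-Nd2 (chrM:3914-4951) had 36.62 and 20.02 TPM, mt-Nd4 (chrM:10167-11544) had 34.5 and 19.2, and mt-Nd5 (chrM:11742-13565) had 25.5 and 11.6. All 7 had the higher TPM in replicate 1, as did every other mitochondrial mRNA except mt-Co3. For the other mRNAs this depended on the unit. In CPM per kb all 7 were still higher in replicate 1, but mt-Co1 (2245 and 2271), mt-Co2 (1334 and 1484) and mt-Atp6 (798 and 931) were higher in replicate 2, like mt-Co3.

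The remaining complex I genes were the short mt-Nd4l (chrM:9877-10173), with 42.2 and 15.2 TPM, and mt-Nd6 (ENSMUSG00000064368.1, chrM:13552-14070), with 11.9 and 5.18 TPM. The ranges of mt-Nd4l, mt-Nd2, mt-Nd4 and mt-Nd5 over the libraries each overlapped the next in order. Within each library, however, TPM fell in the order mt-Nd2, mt-Nd4, mt-Nd5 and mt-Nd6, and mt-Nd4l alone changed place. In CPM per kb, mt-Nd2 and mt-Nd4 changed order, at 115.5 and 113.5 in replicate 1 and 74.62 and 74.72 in replicate 2. The order of mt-Nd4l, mt-Nd2 and mt-Nd4 was therefore not resolved by 2 libraries. From mt-Co1 down to mt-Cytb no neighbours in the TPM order overlapped. mt-Nd6 was the lowest in each library, but its range overlapped that of mt-Nd5.

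**Figure D2:**
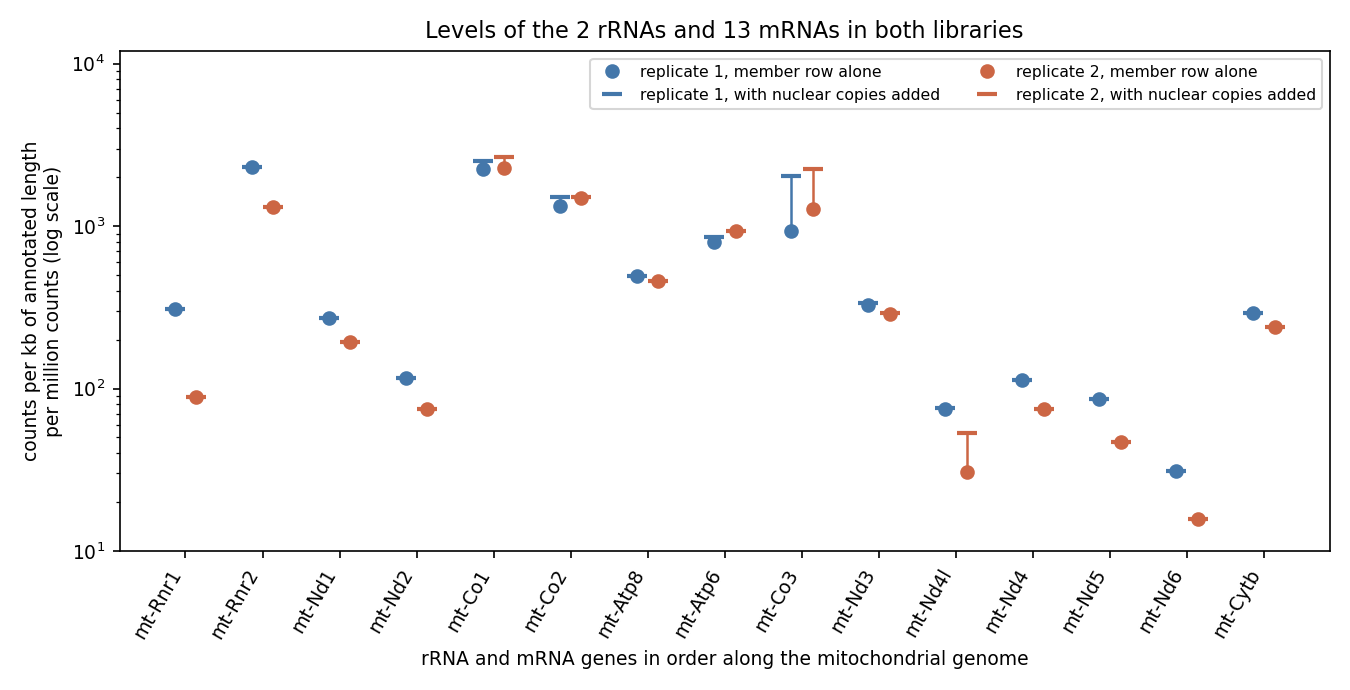
Levels of the 2 rRNAs and 13 mRNAs as CPM per kb of annotated length (log axis), in order along the genome, with 1 point per library and a bar where the counts of nuclear copies are added. By the rows alone mt-Rnr2 stands highest in replicate 1, at 2308, and mt-Co1 in replicate 2, at 2271; mt-Nd6 is lowest in both, and mt-Co3 and, in replicate 2, mt-Nd4l move most when copies are added.

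Set among 21474 protein-coding genes, 5 mitochondrial mRNAs were in the top 100 by TPM in both libraries. mt-Co1 ranked 17 in replicate 1 and 23 in replicate 2, mt-Atp8 ranked 31 and 39, and mt-Co2 ranked 43 and 46. mt-Co3 ranked 71 and 61, and mt-Atp6 79 and 81. All ranks here are of the member rows alone, without nuclear copies. Gm28437, the near-identical copy of mt-Co3 described below, had 370 and 274 TPM, against 313 and 362 for mt-Co3, so the rank of mt-Co3 is uncertain. mt-Nd6 ranked 1593 and 3141. By count rather than TPM, mt-Co1 was the protein-coding gene of rank 6 in both libraries. mt-Co2 ranked 52 and 51 by count, and mt-Co3 80 and 55. mt-Atp6, at 126 and 120, and mt-Atp8, at 1425 and 1614, were outside the top 100 by count.

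mt-Nd6 is the only mRNA of the minus strand. It had 1049 counts in replicate 1 and 744 in replicate 2, which was 0.232% and 0.116% of mitochondrial mRNA counts. mt-Nd6 had 31.0 and 15.8 CPM per kb, against 636 and 650 CPM per kb for the plus-strand mRNAs as a whole. The ratio of mt-Co1 to mt-Nd6 in TPM was 56.5 and 111 (83.7 ± 38.6, SD, n = 2). The sources used here do not say whether the counting used the strand of the reads, so reads of precursors antisense to mt-Nd6, such as those of its neighbour mt-Nd5 on the plus strand, cannot be told apart from its own. mt-Nd5 itself was 2.78 and 2.95 times as high per kb as mt-Nd6.

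All 22 tRNAs had 0 counts and an effective length of 0 in both libraries. They were mt-Tf, mt-Tv, mt-Tl1, mt-Ti, mt-Tq, mt-Tm, mt-Tw, mt-Ta, mt-Tn, mt-Tc, mt-Ty, mt-Ts1, mt-Td, mt-Tk, mt-Tg, mt-Tr, mt-Th, mt-Ts2, mt-Tl2, mt-Te, mt-Tt and mt-Tp. Their length was 59 to 75 bases. Per the labels, fragments of 300 to 350 bases were selected, yet mt-Atp8, of 204 bases, and mt-Nd4l, of 297 bases, were counted. The effective lengths of the counted members were 154.0 bases below annotated length in replicate 1 and 160.6 in replicate 2. Both values exceed the length of any of these tRNAs. Of the 888 Ensembl rows no longer than 75 bases, 0 had a count, and the shortest Ensembl row with any count had 108 bases. A limit of 3 counts would be 0.0461 and 0.0330 CPM, but with no possible fragment the 0 gives no measure of tRNA level.

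The tables list nuclear genes that repeat parts of the mitochondrial genome, and 7 of these lie together on chromosome 1, between bases 24611535 and 24616197 on the minus strand. Over their aligned parts they matched a member at 99.7% identity or more. Their counts and those of 3 less similar copies on chromosome 2 made up 17.4% and 16.1% of the summed counts of mRNAs and copies (16.7% ± 0.912, SD, n = 2), or 0.146% and 0.136% of all counts. The copies of mt-Co2, mt-Atp6, mt-Nd3 and mt-Nd4l each ended 3 bases before the member, and that of mt-Co3 ended 1 base before it.

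The mt-Co3 pair shows the uncertainty most plainly. Gm28437 is identical to mt-Co3 over 783 of its 784 bases. It had 56077 counts in replicate 1 and 68414 in replicate 2, against 47607 and 90408 for mt-Co3, so the copy held 54.1% of the pair in replicate 1 and 43.1% in replicate 2. The pair's sum was a whole number in each library, 103684 and 158822. The authors' posterior SD of the mt-Co3 count was 43.8% and 42.7% of the count. With the copy added, mt-Co3 moved from the third to the second place per kb, at 2031 and 2230 CPM per kb against 1507 and 1514 for mt-Co2 with its copies.

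Gm29216, which shares the last 479 bases of mt-Co1, had 28528 and 52509 counts, or 11.2% and 14.1% of the pair. Most of mt-Co1 lies outside the shared part, and its posterior SD was 0.081% and 0.066% of the count. Gm28661, identical to mt-Co2 over 681 bases, had 7680 counts in replicate 1 and 1826 in replicate 2, or 11.5% and 1.94% of the pair. The authors' posterior mean gave the same copy 32.6% and 26.7%.

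The smaller pairs were split in ways that differed between the libraries. Gm10925, identical to mt-Atp6 over 678 bases, held 6.56% of the pair in replicate 1 and 0.0209% in replicate 2. Gm10222, identical to mt-Nd4l over 294 bases, held 0.712% with 10.4 counts in replicate 1 and 41.9% with 599 counts in replicate 2. Gm28438, which the 1 substitution separates from mt-Nd3, held 1.80% and 0.458%. Gm28439, identical to 876 bases of mt-Nd4, had 0 counts in both libraries. It was named after its value was seen.

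Copies with more differences took few counts. Gm13340, at 97.6% identity to mt-Co1, had 37.7 and 47.4 counts, and Gm13341, at 95.9% to mt-Co2, had 23.6 and 31.6. Both were named after their values were seen. Gm13340 held 0.0167% of its pair in replicate 1 and 0.0149% in replicate 2, while the part copy on chromosome 1 with 479 identical bases held 11.2% and 14.1%.

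**Figure D3:**
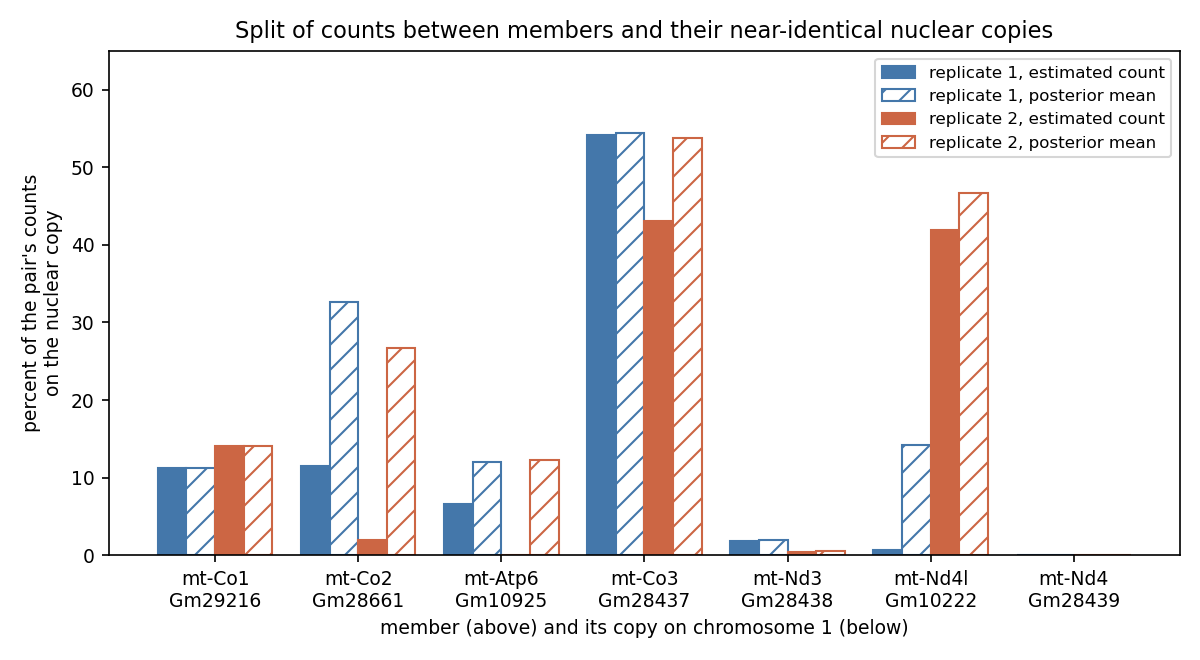
Percent of each pair's counts assigned to the nuclear copy on chromosome 1, for 7 members, by the deposited estimated count (solid bars) and the deposited posterior mean (hatched bars) in each library. The mt-Co3 copy holds 54.1% and 43.1%, the mt-Nd4l copy 0.712% and 41.9%, and the 2 estimates differ most for mt-Co2.

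The ratio of mt-Nd4l to mt-Nd4, neighbours on 1 message that share 7 bases, was taken with and without the copy. Per kb, the ratio was 0.664 in replicate 1 and 0.411 in replicate 2. With Gm10222 added to mt-Nd4l it was 0.668 and 0.708. The libraries differed in this ratio by the member row alone and were close with the copy added. The part of the read split in that difference was not tested.

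The 15 members that passed a minimum of 10 counts were compared between the libraries, with an exact binomial test on counts scaled by TMM, adjusted by Benjamini-Hochberg over all 15275 genes tested. A gene was called at an adjusted p under 0.05 and a ratio of 2-fold or more. The test covers counting error only and compares these libraries, not conditions. Of the 15 members, 0 were called higher in replicate 2, where 2.42% of all genes tested were, and 2 were called lower, where 4.08% of all genes were. Those percentages stand for 369 genes higher and 623 lower, a split that became 290 and 819 when the libraries were scaled to protein-coding counts. By adjusted p alone, 4 members were higher and 11 lower, beside 31.5% and 30.5% of all genes tested, so passing that threshold was common at this depth.

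mt-Rnr1 had the largest difference of any member. Its log2 ratio of replicate 2 to replicate 1 was -1.76, with a 95% counting interval of -1.80 to -1.72, and 98% of genes tested had a smaller absolute log2 ratio. mt-Rnr2 had a log2 ratio of -0.79 and did not reach 2-fold. Both rRNAs were lower in replicate 2, by unequal amounts.

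mt-Nd4l was the other member called, with a log2 ratio of -1.26 (interval -1.39 to -1.14; exact binomial test, adjusted p = 2.96e-93). Its counts were 1457 and 829, and those of the member and its copy together were 1467 and 1428. With the copy added the log2 ratio was -0.49, with an interval of -0.60 to -0.38, and was no longer 2-fold.

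The other complex I genes were also lower in replicate 2, none by 2-fold. mt-Nd6 had a log2 ratio of -0.95 (interval -1.08 to -0.81), mt-Nd5 of -0.86, mt-Nd2 of -0.60, mt-Nd4 of -0.57, mt-Nd1 of -0.47 and mt-Nd3 of -0.15. All 7 were below 0, with a median of -0.60. Of the 6 mRNAs of complexes III to V, 4 were above 0.

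Those above 0 were mt-Co3 at 0.48, mt-Atp6 at 0.25, mt-Co2 at 0.19 and mt-Co1 at 0.05, and mt-Co1 changed sign to -0.05 when scaled to protein-coding counts. With copies added, mt-Co3 was at 0.17, mt-Atp6 at 0.16, mt-Co2 at 0.04 and mt-Co1 at 0.10. mt-Atp8 was at -0.07 and mt-Cytb at -0.25. The median of the 13 mRNAs was -0.25. Over all genes tested the median log2 ratio was -0.005, and the central 80% lay between -0.70 and 0.54. Most member mRNAs were inside that range, and mt-Nd4l, mt-Nd6 and mt-Nd5 were below it.

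**Figure D4:**
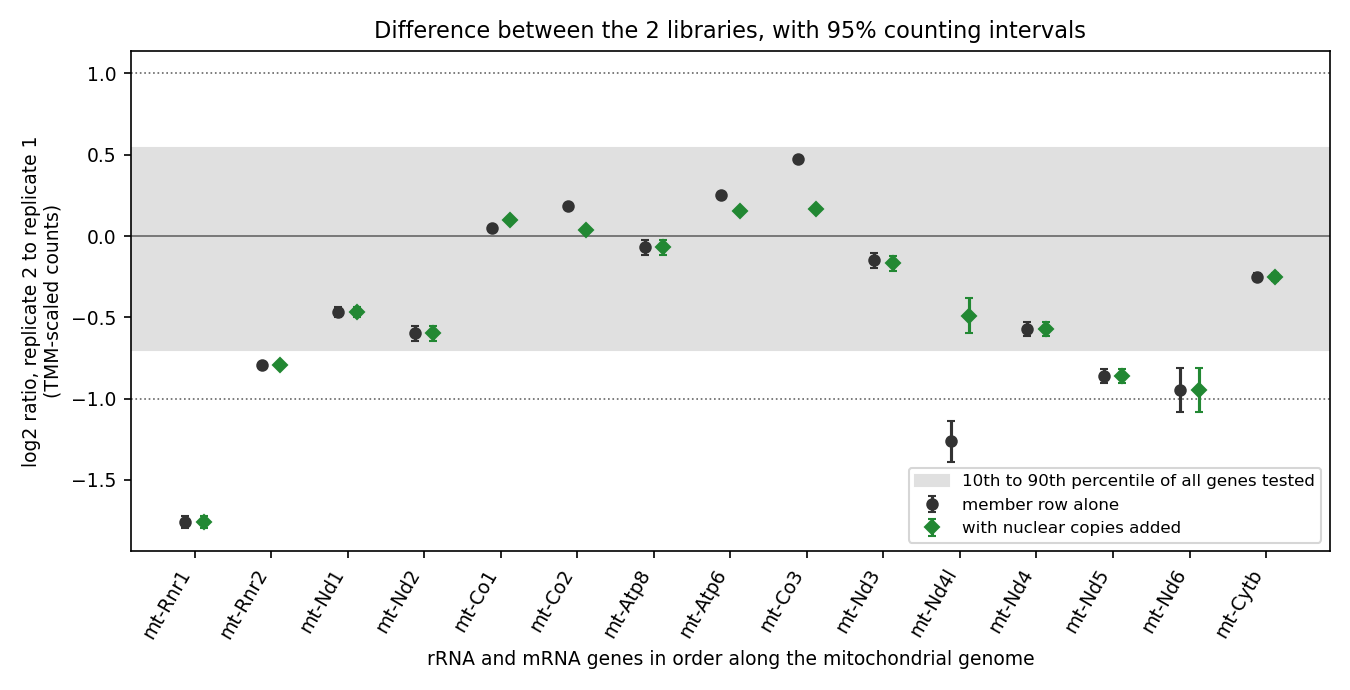
Log2 ratio of replicate 2 to replicate 1 for the 15 members in genome order, with 95% counting intervals, for the member row alone (circles) and with nuclear copies added (diamonds); the grey band is the 10th to 90th percentile of all genes tested and dotted lines mark 2-fold. mt-Rnr1 lies at -1.76, and mt-Nd4l moves from -1.26 to -0.49 when its copy is added.

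The nuclear genes that transcribe and replicate the mitochondrial genome, or cut, modify and degrade its RNA, were taken as 50 genes in 2 lists. Of these 41 reached 1 TPM in both libraries, beside 8003 of 21474 protein-coding genes. The median level was 2.50 and 1.90 TPM for the 18 genes of transcription, replication and the nucleoid, and 3.67 and 2.96 TPM for the 32 genes of RNA cleavage, modification and decay. Their median log2 ratios were -0.04 and -0.14. Of 49 tested, 0 were called higher and 1 lower, beside 2.42% and 4.08% of all genes tested, so nothing particular to these lists is read from the count.

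The one called was Top1mt, the mitochondrial DNA topoisomerase, with 747 counts in replicate 1 and 388 in replicate 2 and a log2 ratio of -1.39. The highest 3 by mean TPM were Hsd17b10, a subunit of the enzyme that cuts tRNAs at their 5′ end, at 32.1 ± 4.48, Tbrg4, also known as FASTKD4, at 18.9 ± 5.63, and Fastk, which is needed for mt-Nd6 mRNA, at 18.1 ± 1.73 (SD, n = 2). The lowest were Fastkd2, listed at 0 in both libraries, Mterf1b at 0.410 ± 0.0141 TPM and Mterf2 at 0.465 ± 0.0778 TPM (SD, n = 2).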

How the data were processed

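Total RNA was sequenced from 2 libraries of 1 group. Per the deposited readme, the authors used mm10 and GENCODE M4; no source used here names the aligner or the counting tool. Per the file headers, the authors assigned reads to genes as estimated counts (expected counts, which need not be whole), with posterior mean counts and their SD. The authors' TPM and FPKM values in the deposited tables are scaled to effective length and depth; the authors' isoform percent was read only to see that each member had 1 transcript. Of 43346 Ensembl rows, 42462 matched GENCODE M21, which gave symbols, coordinates and transcript sequences, and 884 did not. None of the 97 spike-in rows was among the genes tested, and 0 columns belonged to other series.

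Levels were described per library and as mean ± SD. For the library difference, counts were rounded, genes with at least 10 counts in either library were kept (15275), and TMM factors (edgeR 4.0.16, R 4.3.3) scaled an exact two-sided binomial test (scipy 1.17.1), with 0.5 added to each count in log2 ratios. DESeq2 1.42.0 size factors were an alternative. Over the 15275 genes the biological coefficient of variation between the 2 libraries was 0.216, and the chi-square per degree of freedom was 258, so they differed by more than sampling noise. Depths of 65109488 and 90856320 give intervals that cover counting error only. Nuclear copies came from a list of 10 genes, set beside a search with blastn 2.17.0 (at least 90% identity over 100 bases) against annotated transcripts. The search matched 17 nuclear genes, 15 of them with a row, of which 10 were on the list. With all matches the copies held the same 16.7% of mRNA and copy counts. Only the test between libraries was tried on simulated counts. These held sampling noise and planted changes, but not the wider spread of the real libraries. Text names all members, the copies with at least 100 counts, and of the nuclear lists the called genes and the 3 highest and 3 lowest. The members and lists were chosen with earlier results of these data known. Alternatives changed the count type, scaling, filter, threshold, denominator, treatment of copies and the library left out.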

Additional observations from a re-analysis of the deposited data

How the results depend on the processing

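The mRNA share of 0.701% was 0.662% from posterior mean counts, 1.04% of protein-coding counts and 0.918% without the 5 highest genes. The rRNA share of 0.305% was 0.456% relative to protein-coding counts. Copies held 21.4% from posterior mean counts, against 16.7%. The 2 members called became 6 at 1.5-fold (mt-Rnr2, mt-Nd2, mt-Nd5 and mt-Nd6 added), 15 by adjusted p alone and 1 with copies added. Adding copies to this test and posterior means for the copies were chosen after seeing the data. Over all genes the 369 higher and 623 lower became 971 and 1493 at 1.5-fold, and 154 and 241 at a minimum of 100 counts, where the same 2 members were called. Protein-coding scaling moved the median log2 ratio of all genes from -0.005 to -0.106, called mt-Nd6 as well (3 members) and reversed mt-Co1 from 0.048 to -0.052. The mt-Co1 to mt-Nd6 ratio of 83.7 was 125 per kb with copies, the rRNA ratio of 10.3 was 18.4 by count, and the minus-strand percentage of 0.174 was 3.51 per kb. Of nuclear genes, 13 reached 5 TPM, against 41 at 1 TPM. Leaving out each library gave mRNA shares of 0.694% to 0.709%, rRNA shares of 0.215% to 0.394%, mt-Co1 to mt-Nd6 ratios of 56.5 to 111, rRNA ratios of 6.99 to 13.6, strand percentages of 0.116 to 0.232, copy shares of 16.1% to 17.4% and 41 to 45 nuclear genes. With 1 library left no difference between libraries could be tested. Posterior SDs above 5% of the count limit mt-Co2, mt-Co3, mt-Atp6 and mt-Nd4l, and the 0 of the tRNAs reflects an effective length of 0, not depth. No paired analysis was possible because both libraries belong to 1 group.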
